A study of Mus musculus with 12 samples.

Results

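Aminoacyl-tRNA synthetases are the enzymes that join each amino acid to its transfer RNA before protein synthesis. The deposited table of mouse bone marrow RNA held rows for all 36 synthetase genes looked for by their gene name, out of 34745 genes in the table. Of these, 20 encode enzymes of the cytosol and 16 encode enzymes that are imported into mitochondria and whose symbols end in 2. All 36 passed the filter on low counts in every comparison. The genes were followed through the groups of the study, which asked how the QJSB granule acts in mice whose leucocytes had been lowered by cyclophosphamide, which alkylates DNA and is toxic to dividing cells.

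RNA was taken from the total marrow of the femur of male mice of the outbred ICR stock. Each of the 4 groups had 3 mice. Saline was given to the normal group. Model mice had cyclophosphamide injected daily at 80 mg/kg between day 5 and day 7 of a week. The QJSB group received the same cyclophosphamide together with the Qi-Jing-Sheng-Bai granule, a formula of traditional Chinese medicine, at 3 g/kg per day for 1 week. The leucogen group received cyclophosphamide with leucogen, a drug used to raise leucocyte counts, at 20 mg/kg per day for 1 week. Cyclophosphamide was thus common to model, QJSB and leucogen, and no group was given a drug without it. The deposited columns are headed Blank, Model, Stilbene and Positive. They were read as normal, model, QJSB and leucogen from the meaning of the words and, for Stilbene, by elimination, and every statement on a group other than model rests on that reading.

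Library totals ran from 14164054 to 14876552 counts in normal, from 13279282 to 16922274 in model, from 16758401 to 18545198 in QJSB and from 11172547 to 14766064 in leucogen. Each pair of replicates differed by more than counting noise, and their chi-square over its degrees of freedom lay between 10.2 and 99.6, largest between QJSB 1 and QJSB 2. The cell makeup of the marrow differed between the groups. The summed level of 14 erythroid genes, headed by the globins, lay between 18388 and 22838 CPM (the count scaled to the size of the library) in normal and between 187 and 1890 CPM in the other 9 libraries. The sum of 15 genes of late neutrophils ran from 23053 to 25726 CPM in normal, from 8131 to 25721 CPM in model, from 9600 to 44633 CPM in QJSB and from 55508 to 70958 CPM in leucogen. QJSB 1 stood at 9600 CPM, far below QJSB 2 and QJSB 3 at 44633 and 41183 CPM. The sum of 8 promyelocyte genes was 1022 to 1252 CPM in normal, 7329 to 10411 CPM in model, 9112 to 9695 CPM in QJSB and 4284 to 5494 CPM in leucogen. Marker genes with no count in any library of a group were Vpreb3 and Tnfrsf17 in QJSB and leucogen, Fcer2a in QJSB, and Vpreb2 and Cr2 in leucogen, all of them genes of B-lineage cells.

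As background, the charged transfer RNA is what the ribosome reads, so these enzymes are needed by every cell that makes protein. Most mitochondrial enzymes are products of separate nuclear genes, while Kars and Gars, for lysine and glycine, each supply both compartments. Eprs joins the glutamyl and the prolyl enzyme in a single protein, and Farsa and Farsb are the 2 subunits of the cytosolic phenylalanyl enzyme. A set of 8 cytosolic enzymes (Eprs, Iars, Lars, Mars, Qars, Rars, Kars and Dars) is held together in the multisynthetase complex. Many cytosolic synthetase genes are targets of ATF4, the transcription factor that is made when phosphorylation of eIF2 alpha slows translation initiation, for example during shortage of amino acids. Shortage of charged transfer RNA is sensed by the kinase GCN2, the product of Eif2ak4.

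ATF4 binds with C/EBP proteins to a composite element with the core TGATGNAA, and the promoters were searched for these letters on both strands. RefSeq promoter windows (GRCm38.p6) of 250 bases before and 50 bases after the transcript start were matched for 26 of the 36 genes, 12 cytosolic and 14 mitochondrial. The core was found in 5 cytosolic genes, Aars, Gars, Iars, Tars and Yars, and in 0 of 14 mitochondrial genes, against 4.51% of the 27025 genes in the promoter table. All 5 belong to the 7 matched genes of a hand-written list of cytosolic synthetases known as ATF4 targets, and 0 of the 5 other matched cytosolic genes held the core. The matching stretches are shown because ATF4 targets are compared with the other cytosolic genes below. Asns (asparagine synthetase) and Chac1 (a glutathione-degrading enzyme) stand beside them as 2 further ATF4 targets. In a list of Atf4 and other ATF4 targets, only 7 of 20 matched genes held the core, these 2 among them. Capitals mark the core, or its reverse complement, and each stretch is written 5′ to 3′ in the direction of transcription. The stretches lie at chr8:111033700-111033767 (plus strand), chr6:55037941-55038000 (plus), chr15:11399659-11399703 (minus), chr13:49682126-49682155 (plus), chr4:129189895-129189924 (plus), chr6:7693210-7693262 (minus) and chr2:119351019-119351086 (plus).
Aars: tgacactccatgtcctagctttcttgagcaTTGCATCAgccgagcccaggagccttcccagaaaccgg
Gars: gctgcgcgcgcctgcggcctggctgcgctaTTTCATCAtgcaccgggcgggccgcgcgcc
Tars: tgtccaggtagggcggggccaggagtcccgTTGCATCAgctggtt
Iars: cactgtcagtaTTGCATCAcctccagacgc
Yars: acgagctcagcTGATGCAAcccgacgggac
Asns: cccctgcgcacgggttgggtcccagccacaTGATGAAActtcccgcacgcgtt
Chac1: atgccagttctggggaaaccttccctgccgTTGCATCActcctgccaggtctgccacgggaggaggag
In Aars, Gars and Tars the core began 112, 30 and 15 bases before the start, and Aars held a second match. In Asns and Chac1 it began 23 and 193 bases before the start. In Iars and Yars it began at base 8 and base 4 of the transcript. An E-box, CACGTG, was present in the windows of Aars, Farsb, Iars, Tars and Ears2, against 8.09% of all genes, and the core of the interferon-stimulated response element, GAAA 2 bases from a second GAAA, in that of Qars alone among the matched members, against 3.99%. Binding was not measured in these data, and a match is a match of letters only.

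In normal marrow the cytosolic genes were the more abundant per length. On the scale of CPM per kilobase of merged exons, Dars, the aspartyl enzyme, was highest at 38.3 ± 4.43 (SD, n = 3). The next were Gars at 22.7 ± 1.17, Farsb at 22 ± 2.30, and Nars (asparaginyl) at 21.5 ± 0.649, whose ranges over the 3 libraries overlapped. Iars (isoleucyl) followed at 19.1 ± 0.664, below the range of Nars. The 10 highest genes were all cytosolic. Rars2 (mitochondrial arginyl) led the mitochondrial genes at 12.4 ± 0.722, and the lowest cytosolic gene was Wars (tryptophanyl) at 4.08 ± 0.181. The lowest of all was Ears2 (mitochondrial glutamyl) at 1.07 ± 0.154, next to Sars2 (mitochondrial seryl) at 1.45 ± 0.388. Together the 36 genes took between 0.145% and 0.312% of a library's counts.

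Model was compared with normal to see how cyclophosphamide changed the marrow. In this comparison 16 of the 36 synthetase genes rose and 0 fell, 10 of the 20 cytosolic and 6 of the 16 mitochondrial genes, at an adjusted p under 0.05 in edgeR's quasi-likelihood test. Among all 14752 genes tested 41.7% were called, 19.7% higher and 21.9% lower. The median log2 fold change was 0.51 over the cytosolic genes, 0.40 over the mitochondrial genes and 0.02 over all genes. In bulk RNA, fewer cells of a type and less RNA per cell cannot be told apart, and markers of several cell types moved in the same contrast. All 14 erythroid genes, 9 of 12 pre-B genes and 9 of 9 mature B genes were called lower. So were 6 of 15 late neutrophil genes and 8 of 20 proliferation genes, while 7 of 8 promyelocyte genes were called higher. The 10 T and NK cell genes had 9 lower and 1 higher, and their sum in model was 1.47 times that in normal, without overlap. Of 14 monocyte and macrophage genes 5 were higher and 7 lower, and 0 of 8 megakaryocyte genes were called. The proliferation sum in model was 0.572 times that in normal, without overlap. Their part in the synthetase changes was not tested.

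The largest rise was that of Vars, the valyl enzyme, whose CPM in replicates 1, 2 and 3 of each group were 34.8, 28 and 34.0 in normal, 92.4, 52.0 and 105 in model, 117, 76.5 and 61.4 in QJSB, and 34.5, 37.8 and 25.1 in leucogen. All 3 model libraries lay above all normal libraries, with a log2 fold change of 1.36 ± 0.25 (SE) and an adjusted p of 0.00296 by edgeR, that is 2.58-fold. Kars, the lysyl enzyme of both compartments, stood at 48.1, 48.0 and 44.7 in normal, 99.9, 70.4 and 128 in model, 148, 99.3 and 85.9 in QJSB, and 33.0, 39.1 and 30.6 in leucogen. Its model libraries were again all above normal (1.09 ± 0.20, adjusted p = 0.00338). Gars, the glycyl enzyme of both compartments, gave 71.1, 67.1 and 74.4 in normal, 111, 117 and 198 in model, 149.5, 119 and 111 in QJSB, and 53.4, 77.8 and 60.5 in leucogen. Model 3 was the highest library, and model and normal did not overlap (1.01 ± 0.22, adjusted p = 0.00699).

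Qars, the glutaminyl enzyme, gave 51.2, 57.7 and 51.8 in normal, 91.8, 86.6 and 119 in model, 111, 111 and 110.4 in QJSB, and 48.2, 56.0 and 51.2 in leucogen. The model and QJSB libraries were at 86.6 CPM or more and the normal and leucogen libraries at 57.7 CPM or less (0.89 ± 0.15 for model against normal, adjusted p = 0.00211). Nars, the asparaginyl enzyme, measured 92.0, 92.0 and 96.9 in normal, 148, 144 and 222 in model, 191, 140.2 and 127 in QJSB, and 78.5, 83.6 and 78.1 in leucogen (0.88 ± 0.18, adjusted p = 0.00473). Lars, the leucyl enzyme, measured 94.1, 85.8 and 92.1 in normal, 133, 143 and 183 in model, 139, 141 and 120.5 in QJSB, and 87.3, 93.0 and 97.5 in leucogen (0.76 ± 0.15, adjusted p = 0.00378). In both genes the lowest model library was above the highest normal library. Tars (0.76), Eprs (0.64), Rars (0.64) and Farsa (0.53) completed the cytosolic rises, for the threonyl, glutamyl-prolyl and arginyl enzymes and the alpha subunit of the phenylalanyl enzyme.

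The other 10 cytosolic genes were not called in model against normal, with log2 fold changes between -0.25 for Hars (histidyl) and 0.50 for Wars. Of these, Aars, the alanyl enzyme, is shown because a single library set its mean. It gave 114, 119 and 121 in normal, 102, 97.4 and 205 in model, 152, 101 and 100.3 in QJSB, and 42.8, 64.9 and 48.1 in leucogen. Model 3 was far above model 1 and model 2, which lay below all normal libraries. The log2 fold change was 0.20 ± 0.28 (adjusted p = 0.603), and without model 3 it was -0.24. Cars (cysteinyl) had a fold change of 0.00, with model libraries from 35.9 to 82.6 CPM around a normal range of 53.4 to 58.5 CPM. Its sign turned in 8 of the 15 alternatives. Model 3 was the highest model library in 16 of the 20 cytosolic genes and in 8 of the 16 mitochondrial genes.

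Among the mitochondrial genes, Sars2, the seryl enzyme, measured 3.98, 4.11 and 6.27 in normal, 7.62, 7.16 and 9.98 in model, 12.4, 7.46 and 7.79 in QJSB, and 2.78, 3.62 and 3.55 in leucogen. Model and normal did not overlap, with a log2 fold change of 0.79 ± 0.26 (adjusted p = 0.0365, edgeR). Cars2, the cysteinyl enzyme, measured 15.2, 13 and 11.2 in normal, 19.7, 20.2 and 25.1 in model, 21.3, 16 and 25 in QJSB, and 20.2, 19.9 and 17.4 in leucogen. All 9 libraries given cyclophosphamide were above the normal ones for Cars2 (0.73 ± 0.18 for model, adjusted p = 0.0133). Vars2 (valyl) rose by 0.59 ± 0.19 (adjusted p = 0.0385), and Iars2 (0.55), Lars2 (0.48) and Nars2 (0.44) by less, for isoleucine, leucine and asparagine. The lowest values were those of Wars2 (tryptophanyl), -0.56, and Pars2 (prolyl), -0.41, neither of which was called.

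At the cutoff in the study's methods, a change over 1.5-fold with an unadjusted P under 0.05, 12 synthetase genes passed, beside 38.4% of all genes. Of the 10 cytosolic rises, 9 were called under all 15 alternative settings, and the exception was Farsa. Of the 6 mitochondrial rises this held for Iars2 alone. Without normal 2 the count of called synthetase genes was 10, with 1 mitochondrial gene among them, while 28.4% of all genes were called. Groups did not overlap for 11 cytosolic and 12 mitochondrial genes, against 55.5% of all genes tested. Scaling by total counts moved the median of all genes from 0.02 to 0.14 and the share of higher genes among all calls from 47.4% to 58.0%, with 20 synthetase genes called, all higher.

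**Figure D1:**
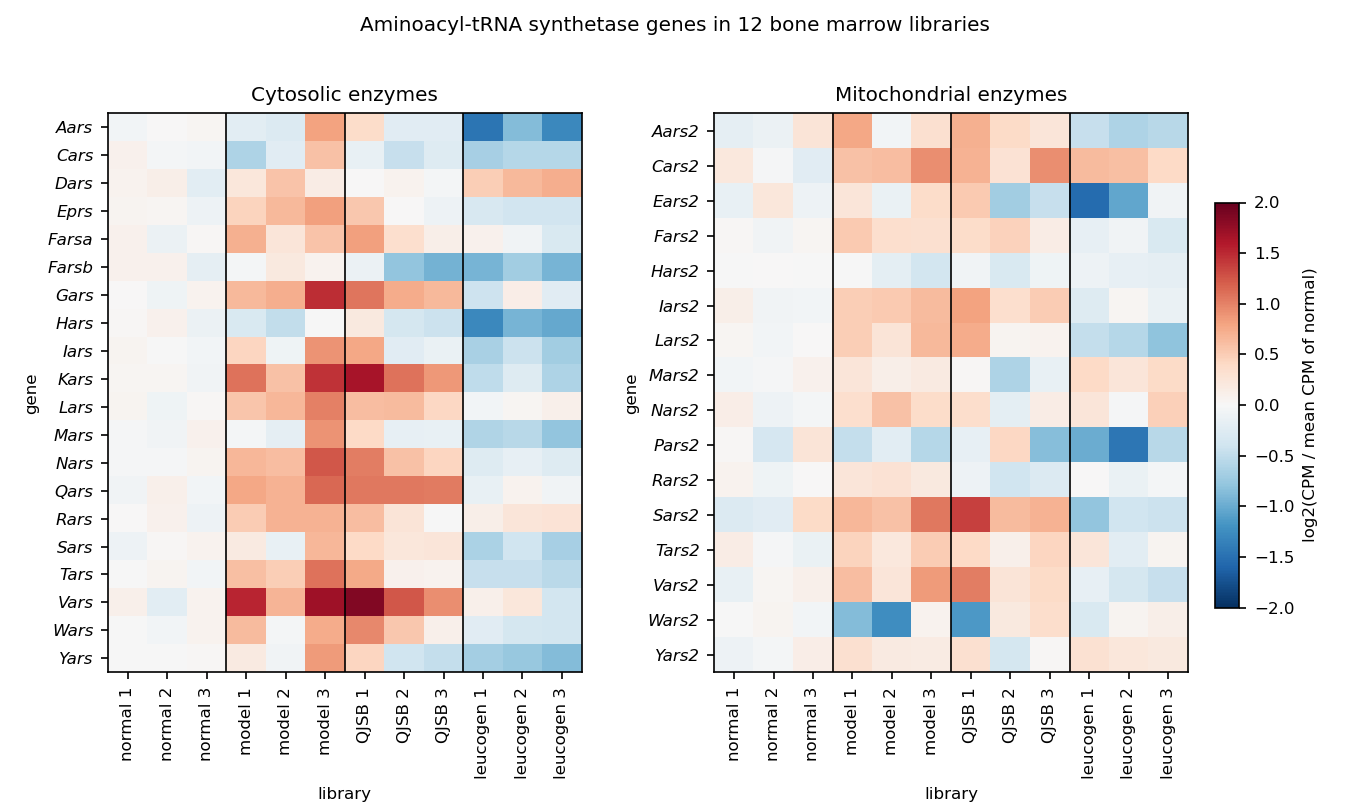
Colour shows the log2 ratio of each library's CPM to the mean of the 3 normal libraries, for 20 cytosolic (left) and 16 mitochondrial (right) synthetase genes in rows and 12 libraries in columns, with the colour scale ending at -2 and 2. Model and QJSB libraries are mostly red in the cytosolic rows, most of all Vars and Kars, and leucogen libraries mostly blue, while Dars is red there.

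Leucogen was compared with model as the reference drug. Nearly every cytosolic synthetase had a lower level in leucogen, relative to the rest of the library. By the same test 18 of 20 cytosolic and 6 of 16 mitochondrial genes fell and 0 of either class rose. Of 14184 genes tested, 27.1% were called, 13.8% higher and 13.3% lower. The median log2 fold change was -0.94 for the cytosolic genes, -0.45 for the mitochondrial genes and -0.05 for all genes. Groups did not overlap for 18 cytosolic and 7 mitochondrial genes, against 46% of all genes. The late neutrophil sum was 3.84 times as high in leucogen as in model, with 9 of its 15 genes called higher and all 15 without overlap, while 4 of 8 promyelocyte genes and 8 of 20 proliferation genes were called lower. Whether the shift in cells has a part in the lower values was not tested.

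The largest fall was that of Kars, from a model range of 70.4 to 128 CPM to a leucogen range of 30.6 to 39.1 CPM (-1.53 ± 0.22, adjusted p = 0.00302), 2.89-fold. Aars fell to between 42.8 and 64.9 CPM, below every library of the other 3 groups (-1.37 ± 0.31, adjusted p = 0.0172). Vars fell by 1.35 ± 0.27 on the log2 scale (adjusted p = 0.00938), to 25.1 to 37.8 CPM, a range that overlapped with normal. These are the lysyl, alanyl and valyl enzymes.

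Tars, the threonyl enzyme, measured 51.7, 54.2 and 50 in normal, 78.7, 73.3 and 111 in model, 87.8, 55.4 and 54.2 in QJSB, and 37.6, 37.5 and 35.8 in leucogen. Its leucogen libraries were the 3 lowest of the 12, and model had the highest mean (-1.24 ± 0.18, adjusted p = 0.00302). Gars fell by 1.14 ± 0.24 (adjusted p = 0.0119). Yars, the tyrosyl enzyme, measured 39.2, 39.3 and 40.1 in normal, 44.6, 37.7 and 71.1 in model, 53.5, 30.1 and 28.4 in QJSB, and 24.8, 23.5 and 21.7 in leucogen. Model 3 was again far above model 1 and model 2, yet all 3 were above leucogen (-1.13 ± 0.23, adjusted p = 0.00938). Eprs, the glutamyl-prolyl enzyme, measured 199, 197 and 178 in normal, 259.6, 298 and 336 in model, 279, 193 and 177 in QJSB, and 153, 146 and 146 in leucogen. Its leucogen libraries were close to each other and below all others (-1.0). The remaining cytosolic falls ran from -1.09 (Nars) to -0.41 (Rars).

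The 2 cytosolic genes not called lower were Cars, at -0.59 ± 0.27 (adjusted p = 0.141), and Dars. Dars, the aspartyl enzyme and a member of the multisynthetase complex, measured 176, 180.5 and 145 in normal, 195, 248 and 184 in model, 168, 175 and 163 in QJSB, and 235, 262 and 276 in leucogen. Leucogen 1 lay between the model libraries and leucogen 2 and leucogen 3 above them, and the log2 fold change was 0.31 ± 0.15 (adjusted p = 0.168). Against normal, Dars was higher in leucogen without overlap (0.64 ± 0.10, adjusted p = 0.000543).

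Of the mitochondrial genes, Sars2 fell from a model range of 7.16 to 9.98 CPM to a leucogen range of 2.78 to 3.62 CPM, a log2 fold change of -1.31 ± 0.25 (adjusted p = 0.00795). Lars2, the leucyl enzyme, measured 17.7, 16.6 and 17.2 in normal, 24.1, 20.6 and 26.9 in model, 28.8, 17.8 and 18.0 in QJSB, and 12.4, 11.6 and 9.79 in leucogen. Leucogen held the 3 lowest libraries (-1.08 ± 0.18, adjusted p = 0.00534). Aars2, the alanyl enzyme, fell by 0.93 ± 0.24 (adjusted p = 0.0212). Vars2 (-0.91), Iars2 (-0.65) and Fars2, the phenylalanyl enzyme (-0.56), were the other calls. Ears2 had a value of -0.93 ± 0.38 that was not called (adjusted p = 0.092), with leucogen libraries of 1.91, 2.70 and 5.33 CPM. Hars2, Yars2, Mars2 and Wars2 had values above 0, at 0.04, 0.03, 0.16 and 0.55, none of them called. The sign of Hars2, Yars2 and Mars2 turned in 4, 4 and 3 of the 15 alternatives.

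At the cutoff of 1.5-fold and unadjusted P 23 genes passed, beside 29.6% of all genes. Of the cytosolic falls, 7 were called under all 15 alternatives: Eprs, Farsb, Kars, Nars, Qars, Tars and Vars. Lars2 and Sars2 were the mitochondrial genes of which this held. Without leucogen 1 the count was 11, and without leucogen 3 it was 11 too, with 8 cytosolic and 3 mitochondrial genes each time, while the share of all genes called dropped to 11.8% and 8.44%. Without model 3 there were 20 lower genes and 1 higher, beside 21.1% of all genes called, and the cytosolic median was -0.75. Scaling by total counts moved the median of all genes to -0.22 and the share of higher genes among all calls from 50.9% to 30.9%, with 26 synthetase genes lower. Rars was called in 4 of the 15 alternatives.

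**Figure D2:**
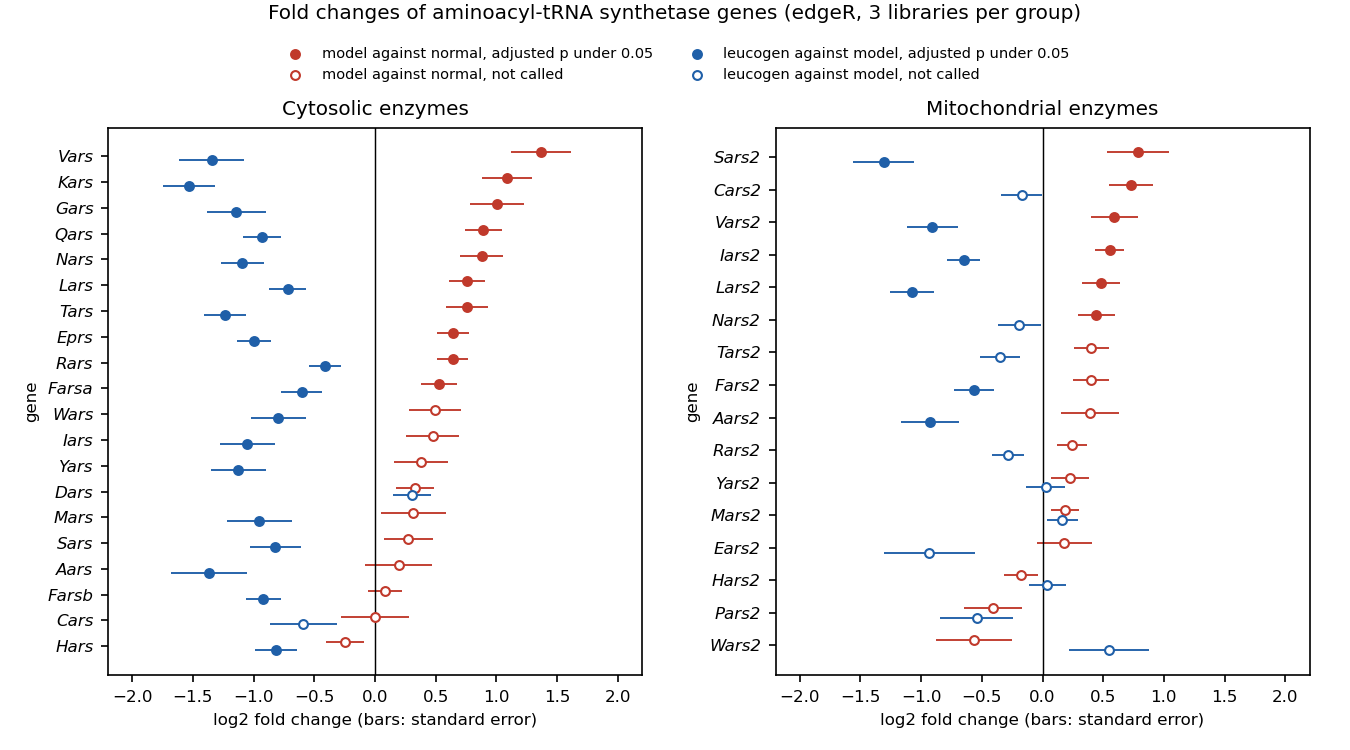
Points give the log2 fold change of each gene with its standard error, model against normal in red and leucogen against model in blue, filled where the adjusted p of edgeR was under 0.05, with cytosolic genes left and mitochondrial genes right in the order of the first comparison. In the cytosolic panel 18 blue points are filled and left of 0 and Dars is the only one right of 0; in the mitochondrial panel 6 are filled. The comparisons share the model libraries.

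QJSB was compared with model as the treatment under study. Between them 0 of 36 synthetase genes were called by edgeR, as were 0% of the 14486 genes tested. DESeq2 also called 0 of the 36, beside 8 of 21744 genes (0.037%). At an unadjusted P under 0.05 there were 3, Eprs, Farsb and Rars2, beside 4.99% of all genes. At the 1.5-fold cutoff Farsb alone passed, beside 3.08% of all genes. The median log2 fold change was -0.21 for cytosolic and -0.08 for mitochondrial genes. The cytosolic median was 0.08 without model 3 and -0.34 without QJSB 1, with 0 synthetase genes called in either fit.

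Farsb, the beta subunit of the phenylalanyl enzyme, measured 61.3, 61.0 and 50.7 in normal, 56.0, 66.0 and 60.7 in model, 53.2, 33.4 and 30 in QJSB, and 30.2, 35.6 and 30.2 in leucogen. The 3 QJSB libraries lay below the 3 of model, QJSB 1 much nearer to model than the others, and the log2 fold change was -0.66 ± 0.23 (95% interval -1.19 to -0.14, adjusted p = 0.767). Rars2, the mitochondrial arginyl enzyme, measured 36.1, 32.1 and 34.5 in normal, 40.4, 41.7 and 39.0 in model, 32, 26.0 and 28.2 in QJSB, and 34.5, 31.2 and 33.4 in leucogen, likewise without overlap between QJSB and model (-0.51 ± 0.16, 95% interval -0.88 to -0.14, adjusted p = 0.767). For Kars the difference was 0.14 (95% interval -0.47 to 0.75) and for Vars 0.02 (95% interval -0.69 to 0.72). These intervals leave room for a change in either direction, so a like level of the genes in QJSB and model was not shown. The sign turned in 2 of 15 alternatives for Kars and in 5 for Vars. Groups did not overlap for 2 cytosolic and 2 mitochondrial genes, against 9.8% of all genes. QJSB 1 was the highest QJSB library in 18 of the 20 cytosolic genes and in 11 of the 16 mitochondrial genes, and it was the library with the low late neutrophil sum.

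Against normal, 9 synthetase genes were higher in QJSB and 0 lower: Gars, Kars, Lars, Nars, Qars and Vars of the cytosol and Cars2, Iars2 and Sars2 of the mitochondria. Of all 14817 genes tested 45.3% were called, 22.1% higher and 23.2% lower. Groups did not overlap for 11 cytosolic and 8 mitochondrial genes, against 58.1% of all genes. Vars had a log2 fold change of 1.41 ± 0.24 (adjusted p = 0.00264), Kars of 1.26 ± 0.20 (adjusted p = 0.00209) and Qars of 1.06 ± 0.10 (adjusted p = 0.000206). Gars (0.85), Nars (0.72) and Lars (0.57) followed. Sars2 rose by 0.96 ± 0.29 (adjusted p = 0.0304), Cars2 by 0.68 and Iars2 by 0.58. Without QJSB 1 there were 14 calls, 9 higher and 5 lower, and without normal 2 there were 6, all cytosolic. The share of all genes called in these fits was 53.2% and 31.0%. The 6 cytosolic rises were called under all 15 alternatives. In QJSB against normal all 14 erythroid and all 12 pre-B genes were called lower and all 8 promyelocyte genes higher. Of 20 proliferation genes 3 were higher and 10 lower, and of 15 late neutrophil genes 2 were higher and 1 lower. The part of these shifts in the synthetase values was not tested.

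Against normal, leucogen differed in both directions, with 14 synthetase genes lower and 3 higher. Of all 14637 genes, 52.3% were called, 25.7% higher and 26.6% lower. Groups did not overlap for 15 cytosolic and 10 mitochondrial genes, against 61.8% of all genes. The 6 largest cytosolic falls were those of Aars (-1.16 ± 0.14, adjusted p = 7.18e-05), Hars (-1.05 ± 0.12, adjusted p = 5.26e-05), Farsb (-0.83), Yars (-0.74), Mars (-0.63) and Cars (-0.58), none of which was called in model against normal. Iars, Sars, Tars, Kars and Eprs fell by less, from -0.57 to -0.34. Hars, the histidyl enzyme, measured 45.3, 47.2 and 41.1 in normal, 36.2, 31.7 and 44.2 in model, 51.2, 35.0 and 33.1 in QJSB, and 18.2, 23.3 and 21.9 in leucogen, with leucogen below all other libraries. The mitochondrial falls were Pars2 (-0.95 ± 0.27, adjusted p = 0.0148), Lars2 (-0.59) and Aars2 (-0.53). The genes that were higher than in normal were Dars, Cars2 (0.57) and Mars2, the mitochondrial methionyl enzyme. Mars2 measured 62.4, 63.6 and 68.9 in normal, 76.9, 70.4 and 73.3 in model, 66.0, 42.3 and 58.6 in QJSB, and 85.3, 76.5 and 84.4 in leucogen, and its leucogen libraries were all above normal (0.36 ± 0.09, adjusted p = 0.00957). In a single fit of all 12 libraries 9 of these 17 genes passed the test, beside 39.0% of all genes. Dars, Aars, Farsb, Hars, Sars, Yars, Cars2 and Lars2 were called under every alternative. In leucogen against normal, too, all 14 erythroid and all 12 pre-B genes were called lower and all 8 promyelocyte genes higher. Of 20 proliferation genes 0 were higher and 18 lower, and of 15 late neutrophil genes 10 were higher and 2 lower. Whether these shifts have a part in the synthetase values was not tested.

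QJSB was also set against leucogen. Of the synthetase genes 17 were higher in QJSB, 12 cytosolic and 5 mitochondrial, and Dars and Mars2 were lower, beside 29.3% of 14266 genes called, 15.5% higher and 13.8% lower. The median log2 fold change was 0.80 for cytosolic, 0.37 for mitochondrial and 0.03 for all genes, and groups did not overlap for 18 cytosolic and 7 mitochondrial genes, against 48.8% of all genes. Kars differed by 1.67 ± 0.21 (adjusted p = 0.00288), Vars by 1.36 ± 0.25 (adjusted p = 0.00694), Aars by 1.16 ± 0.22 (adjusted p = 0.00706) and Qars by 1.08 ± 0.12 (adjusted p = 0.00285). Gars (0.97) and Nars (0.91) followed. Of the mitochondrial genes, Sars2 differed by 1.45 ± 0.28 (adjusted p = 0.00755), Aars2 by 0.99 and Lars2 by 0.91. Dars differed by -0.63 ± 0.13 (adjusted p = 0.00839), and Mars2 by -0.58 ± 0.18 (adjusted p = 0.0394). Without leucogen 1, leucogen 2 or leucogen 3 the count was 10, 12 or 9, and it was 20 without QJSB 1. The share of all genes called in these fits was 14.9%, 20.4%, 10.5% and 33.1%. The late neutrophil sum was lower in QJSB than in leucogen in every library, and its part was not tested.

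In CPM summed over genes, the cytosolic enzymes amounted to 1449, 1437 and 1383 in normal, 1889, 1845 and 2585 in model, 2237, 1675 and 1557 in QJSB, and 1155, 1277 and 1189.6 in leucogen. The mean was 1423 ± 35 in normal, 2107 ± 415 in model, 1823 ± 364 in QJSB and 1207 ± 62.7 in leucogen (SD, n = 3). The model mean was 1.48 times the normal mean and the leucogen mean 0.573 times the model mean, and both pairs of groups were apart. The mitochondrial sum was 364, 345 and 359 in normal, 452, 419 and 461 in model, 467, 353 and 404 in QJSB, and 362, 346 and 359.6 in leucogen. It moved less, to 1.25 times normal in model and 0.801 times model in leucogen, where it lay in the range of normal. In QJSB both sums overlapped with model, QJSB 1 being the highest library in each.

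**Figure D3:**
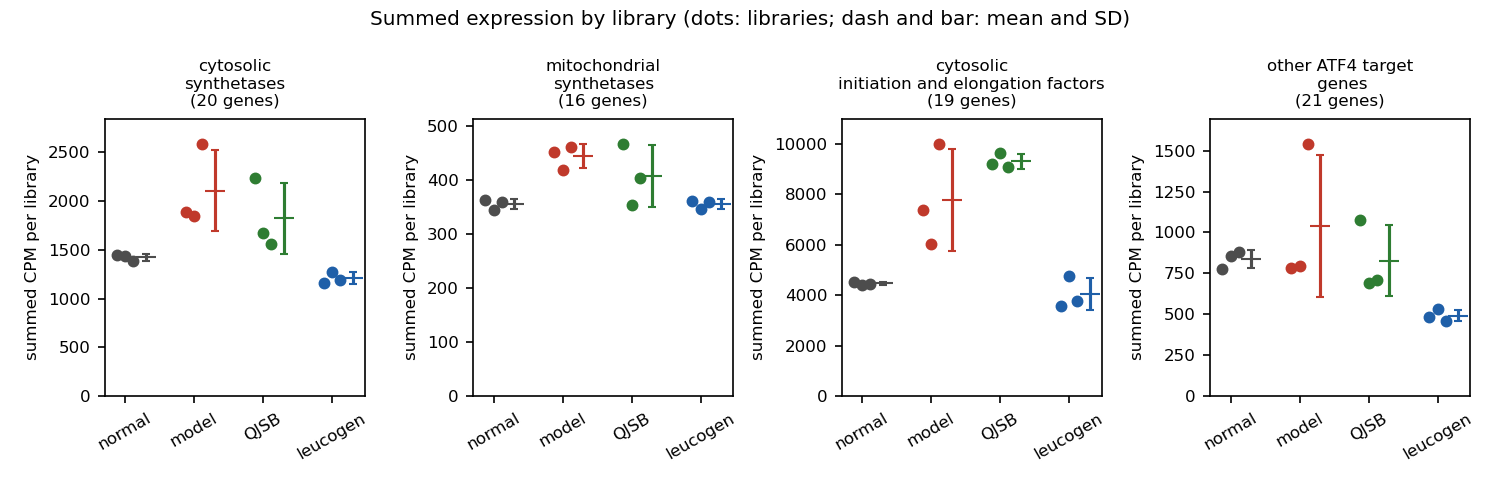
Each dot is the CPM of a library summed over the genes of a list, for the 20 cytosolic and 16 mitochondrial synthetases, 19 initiation and elongation factors and 21 other ATF4 target genes, with the group mean and SD beside the dots and the vertical axis from 0. Leucogen lies below model in all 4 panels, and model 3 is the highest model library in each.

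The balance between the compartments was followed as the log2 ratio of the CPM of the cytosolic gene to that of the mitochondrial gene for the same amino acid, with 0.5 added to each, in the 13 amino acids that have a gene pair of their own. Between leucogen and model the ratio was lower without overlap in 6 pairs, higher in 2 and overlapping in 5, with a median difference of -0.44. The difference of the group means was largest for tryptophan, -1.34, and then for tyrosine, -1.08. Yars over Yars2 was 1.59, 1.53 and 1.40 in normal, 1.36, 1.26 and 2.19 in model, 1.62, 1.46 and 1.01 in QJSB, and 0.54, 0.55 and 0.47 in leucogen. The leucogen libraries were within 0.09 of each other and all below the other groups. For methionine, Mars over Mars2 was -0.19, -0.26 and -0.21 in normal, -0.50, -0.51 and 0.50 in model, 0.14, 0.23 and -0.21 in QJSB, and -1.21, -1.0 and -1.38 in leucogen, again with leucogen apart. Wars over Wars2 was 0.37, 0.26 and 0.49 in normal, 1.81, 1.5 and 1.04 in model, 2.39, 0.71 and 0.14 in QJSB, and 0.44, -0.01 and -0.09 in leucogen, a ratio whose mitochondrial gene was low and varied most in model and QJSB.

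The direction was the opposite for leucine and serine. Lars over Lars2 was 2.38, 2.34 and 2.39 in normal, 2.44, 2.77 and 2.74 in model, 2.26, 2.96 and 2.71 in QJSB, and 2.77, 2.95 and 3.25 in leucogen. Sars over Sars2 was 3.26, 3.34 and 2.84 in normal, 2.68, 2.44 and 2.80 in model, 2.23, 2.76 and 2.71 in QJSB, and 3.20, 3.09 and 2.86 in leucogen. For these amino acids the mitochondrial gene was lower by more than the cytosolic gene in leucogen than in model. The other pairs lower in leucogen were those for histidine, asparagine and threonine. From normal to model the ratio was higher in 5 pairs, lower in 2 (cysteine and serine) and overlapping in 6, with a median difference of 0.10. QJSB and model overlapped in all 13. These ratios were not tested, and comparisons with model share its libraries.

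**Figure D4:**
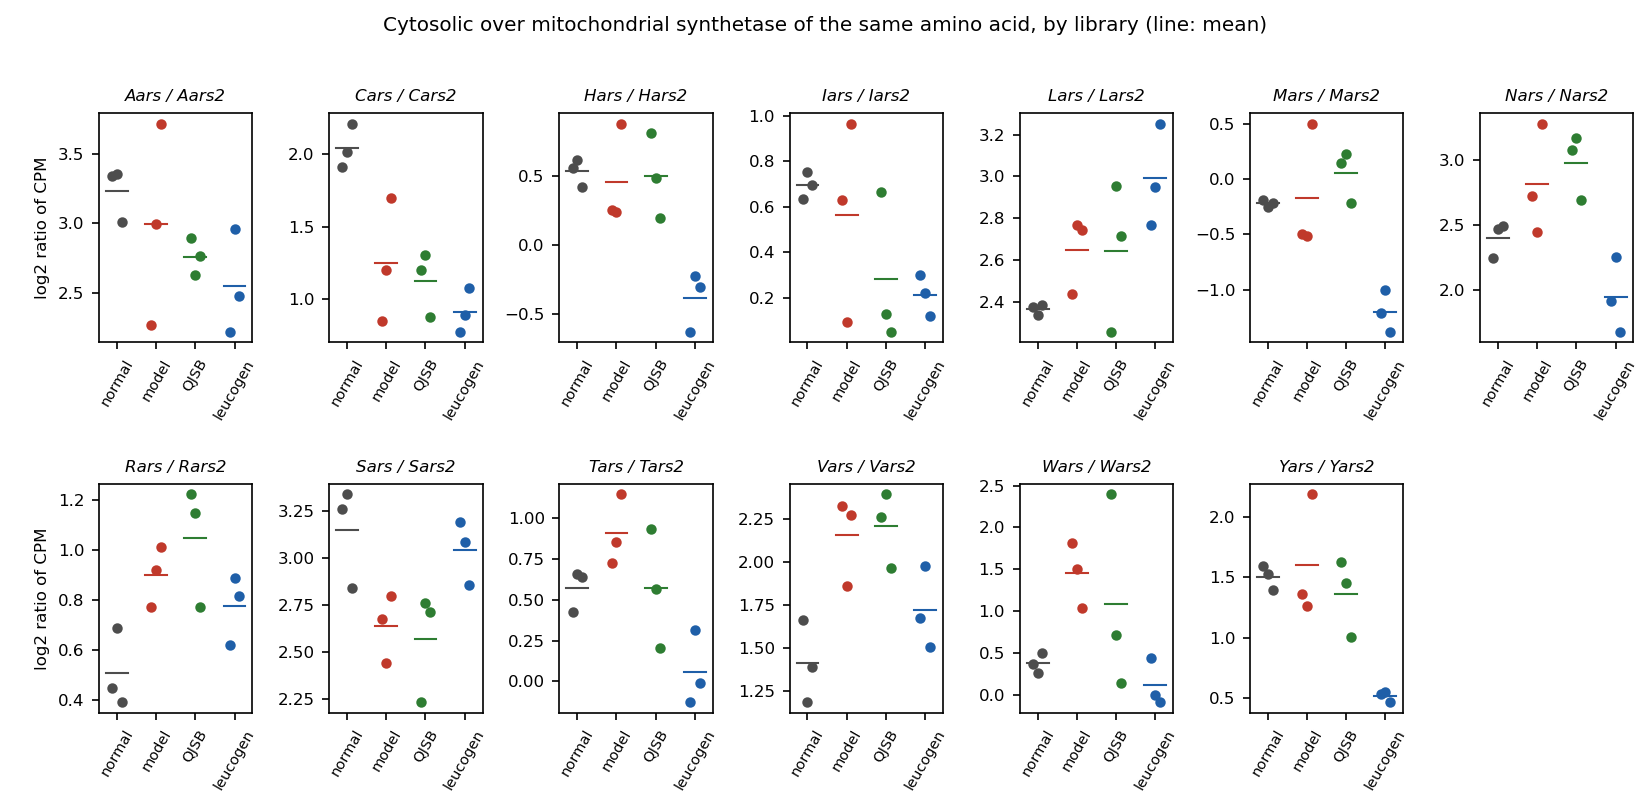
Each panel gives the log2 ratio of the CPM of the cytosolic to the mitochondrial synthetase gene of an amino acid in the 12 libraries, with dots for libraries and a line for the group mean; vertical scales differ between panels. Leucogen lies below model without overlap in 6 panels, among them Wars / Wars2 and Yars / Yars2, and above it for Lars / Lars2 and Sars / Sars2.

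Within the cytosolic class, the 12 genes listed as ATF4 targets had a median log2 fold change of 0.48 in model against normal, with 5 called higher, and of -1.02 in leucogen against model, with 11 called lower. The other 8 had 0.58 with 5 higher and -0.87 with 7 lower. The sum of the 12 in leucogen was 0.493 times that in model, and that of the 8 was 0.724 times. Without Dars, the most abundant of the 8 and the one not lower in leucogen, the sum of the other 7 was 0.52 times that in model. The 5 genes with the core shown above had log2 fold changes in leucogen against model of -1.37 (Aars), -1.24 (Tars), -1.14 (Gars), -1.13 (Yars) and -1.05 (Iars), while Kars and Vars, with -1.53 and -1.35, are not on the ATF4 list. The core was not found in the window of Kars, and Vars was not matched. The 8 genes of the multisynthetase complex had a median of -0.94 with 7 lower, and the 12 outside it -1.01 with 11 lower.

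Atf4 itself measured 149, 141 and 132 in normal, 111, 145 and 204 in model, 158, 94.4 and 96.1 in QJSB, and 93.9, 90.7 and 83.9 in leucogen. Leucogen was below every library of model (-0.77 ± 0.21, adjusted p = 0.0244), and between model and normal the value was 0.13 ± 0.21 (adjusted p = 0.641). ATF4 is controlled chiefly at translation, which RNA does not show. Of the list of 21 genes made up of Atf4 and other ATF4 targets, 8 were higher and 3 lower in model against normal, and 11 were lower and 0 higher in leucogen against model, with medians of 0.38 and -1.21. Of all genes, 19.7% were higher and 21.9% lower in the first comparison and 13.3% lower in the second. The largest falls in leucogen were those of Trib3, a pseudokinase induced by stress (-2.59 ± 0.77, adjusted p = 0.0424), Slc7a5, a transporter of large neutral amino acids (-2.16 ± 0.56, adjusted p = 0.0347), and Psat1, of serine synthesis (-2.05 ± 0.20, adjusted p = 0.00158). Model 3 was the highest model library for 18 of the 21. The largest change in model against normal was the fall of Ppp1r15a, a phosphatase subunit that restores translation (-3.98). Nupr1 (2.14), a stress-induced nuclear protein, and Atf5 (2.05), a transcription factor, followed with rises.

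The 4 kinases that phosphorylate eIF2 alpha were Eif2ak1, Eif2ak2, Eif2ak3 and Eif2ak4. Eif2ak1, the heme-regulated kinase of erythroid cells, was lower in model than in normal (-1.70 ± 0.15, adjusted p = 7.17e-05), together with the 14 erythroid genes, all called lower. Eif2ak2, activated by double-stranded RNA, was higher (0.63). Eif2ak3, of the endoplasmic reticulum, and Eif2ak4, GCN2, had -0.24 and 0.04. None of the 4 was called in leucogen against model, with values from -0.45 to -0.04.

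Genes for other steps of translation were counted alongside, to be read beside the 19.7% of all genes called higher in model against normal and the 13.3% called lower in leucogen against model. Of 19 cytosolic initiation and elongation factors, 12 were higher in model than in normal and 11 lower in leucogen than in model, with 0 called in the other direction. The largest rises in model were those of Eef1a1, which brings charged transfer RNA to the ribosome (1.09), Eif5a (0.94) and Eef1g (0.94). The largest falls in leucogen were those of Eif5a (-1.27), Eef2, the translocation factor (-1.20), and Eef1g (-1.13). Of 10 mitochondrial translation factors, 4 were higher in model, led by Mtrf1 (1.00), Tsfm (0.92) and Gfm1 (0.75), and 2 were lower in leucogen, Tufm (-1.28) and Gfm1 (-0.84). Of 10 genes of MYC and ribosome biogenesis, 4 were higher and Odc1, of polyamine synthesis, lower (-2.05) in model, and 7 were lower in leucogen, led by Fbl (-1.67), Cad (-1.63) and Odc1 (-1.34).

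Of 15 other genes of transfer RNA charging, 3 were called in model against normal and 2 in leucogen against model, beside 41.7% and 27.1% of all genes. In model against normal Gatb, a subunit of the mitochondrial amidotransferase, rose (0.72), and Eef1e1, a scaffold of the multisynthetase complex (-0.86), and Tarsl2, a second threonyl enzyme (-0.78), fell. In leucogen against model Aarsd1, an editing enzyme for mischarged alanine transfer RNA (-1.12), and Gatb (-0.65) fell. The other scaffold genes of the complex, Aimp1 and Aimp2, had 0.06 and -0.62 in leucogen against model, neither called. Of 21 interferon-stimulated genes, a class that shares regulation with Wars, 4 were higher and 7 lower in model against normal, and 3 higher and 1 lower in leucogen against model, beside the same shares of all genes.

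Annotation limits the values of some genes. In the GENCODE M21 annotation 13 of the 36 shared exon bases with a gene on the other strand, among them Hars with Hars2 and Mars with the ATF4 target Ddit3, and Aars shared 1326 bases with Exosc6 on its own strand. The libraries were strand-specific, but the strand setting used in counting is not given in the sources used here.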

How the data were processed

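Ribosomal RNA was removed and libraries kept the strand. The authors used Seqtk to filter reads and Hisat2 to place them on GRCm38.p4 (mm10). The deposited table gives unnormalized read counts and FPKM for 34745 genes and 12 libraries; the counting program is not given in the sources used here, and 0 sample columns were left unused. Counts were tested with edgeR 4.0.16 in R 4.3.3 (TMM, filterByExpr, robust glmQLFit, glmQLFTest), with the libraries of the groups compared in each fit and Benjamini-Hochberg adjustment over all genes tested. A gene was called at an adjusted p under 0.05. CPM were counts scaled by TMM factors over all libraries. Standard errors were the log2 fold change over the square root of F, and 95% intervals used the test's degrees of freedom. P-values judge the difference between groups against the spread between mice within groups, estimated from 3 libraries per group.

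The 36 genes and all other lists were chosen with earlier results of these data known. The genes named with their fold changes were, per comparison, the 6 largest rises and falls of the cytosolic and the 3 largest of the mitochondrial enzymes among those called, up to 3 called genes of each other list, and every gene of lists of 4 or fewer. Other members were named after their values were seen, to account for all 36.

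Alternatives were DESeq2 1.42.0, its size factors in edgeR, total counts, no filter, a minimum of 10 counts per library, a single fit of all 12 libraries, a replicate block, limma-trend (limma 3.58.1) on log2(FPKM + 0.1) and log2(FPKM + 1) for genes with mean FPKM from 0.1 up, and leaving out each library. Same-numbered libraries deviated together for QJSB and model (correlations 0.426, 0.123 and 0.107 over 15310 genes), and for no other comparison was the correlation over 0.1 in every pair (QJSB and leucogen 0.181, 0.134 and 0.078). Correlations between libraries with different numbers were not computed, so these values cannot show that the numbers pair QJSB and model. No label states a shared batch.

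Gene lengths came from GENCODE M21 (GRCm38) and promoter windows from RefSeq (GRCm38.p6), matched by symbol or gene ID. The tests were checked on simulated counts in which 200 genes were changed by 1 or 2 on the log2 scale, in either direction. For the comparisons in the order below, 86.9%, 86.5% and 79% of the genes changed by 2 were recovered. Far fewer genes were changed than the 6149 called in model against normal, so the shares recovered and false need not hold for the synthetase calls. For model against normal edgeR recovered 134 of them (67%) among 14752 genes, with 16 false calls (10.7% of its calls), for leucogen against model 129 (64.5%) among 14184 genes with 16 (11.0%), and for QJSB against model 103 (51.5%) among 14486 genes with 12 (10.4%), so the share of false calls was above the nominal 5%.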

Additional observations from a re-analysis of the deposited data

How the results depend on the processing

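The number of synthetase genes called stayed within 1.5 times its value in 82 of 90 recomputed counts. The only change under a setting other than leaving out a library was leucogen against normal with all 12 libraries in one fit, where 9 genes were called instead of 17. The share of all genes called in that fit was 39.0%, against 52.3% in the main fit. With a library left out the counts ran from 10 to 19 for model against normal, from 11 to 24 for leucogen against model, from 0 to 0 for QJSB against model, from 15 to 18 for leucogen against normal, from 6 to 14 for QJSB against normal and from 9 to 20 for QJSB against leucogen. The cause of these changes was not tested. Of 1710 recomputed fold changes of genes called under any setting, 2 were counted as reversed: Yars in QJSB against normal, -0.07 with all libraries and -0.43 and called without QJSB 1, was 0.07 without QJSB 2 and 0.10 without QJSB 3. A further 142 lost and 58 gained a call. In the 102 cases of a gene and comparison called under no setting, 136 of 1530 recomputed fold changes had the other sign. With the replicate number as a block the counts were 13 for model against normal, 19 for leucogen against model, 0 for QJSB against model, 17 for leucogen against normal, 8 for QJSB against normal and 21 for QJSB against leucogen, so the block moved no total by over 1.5 times. Within the mitochondrial class it did: 3 genes rose in model against normal instead of 6, and 1 in QJSB against normal instead of 3, where 1 cytosolic gene was called lower. Under FPKM with limma-trend and a pseudocount of 0.1, 32.7% of all calls in leucogen against model were higher, against 50.9% with TMM, and 25 synthetase genes were lower. Without leucogen 1 or leucogen 3 the count of leucogen against model went from 24 to 11, while the cytosolic median was -0.92 and -0.91, against -0.94 with all libraries. The depth of the libraries limits counting error only.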

Other observations

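The length behind each deposited FPKM was worked out from the count, the library total and the FPKM. For the 36 synthetase genes it was between 0.589 and 4.45 times the longest GENCODE M21 transcript, with a median of 1.85. It was longer than that transcript by over 5% for 26 genes, and it lay within 5% of it for 7. Levels between genes were therefore compared as CPM per kilobase of merged exons and not as FPKM. With the longest transcript in place of merged exons Dars was again highest and Ears2 lowest in normal, but other ranks moved. Eprs went from rank 12 to rank 3, Nars from 4 to 2 and Gars from 2 to 4, and Pars2 took the place of Sars2 next to the lowest.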
